A study of Mus musculus with 10 samples.

Results

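Neutrophils lacking Lcn2, the gene of lipocalin 2, were compared with wild type neutrophils after both had been stimulated with fMLP. The comparison uses 4 of the 10 arrays of the study: 2 labelled fMLP stimulated lcn2 knockout and 2 labelled fMLP stimulated wild type, chosen by those labels alone. The other 6 arrays, 3 of unstimulated wild type and 3 of unstimulated knockout cells, entered the fits for their spread and are used here as the resting reference. All 10 came from 10-week-old female C57bl/6 mice. Marrow was flushed from tibia and femur, red cells were lysed, and the cells that collected between the dense Percoll layers were taken as neutrophils. For the 4 arrays compared here, cells were held at 37 °C with 10 micromolar fMLP, and the stimulation lasted 20 minutes, so both genotypes carry the same treatment and differ by label only in Lcn2. How the Lcn2 allele was inactivated, whether replicates were separate animals or pooled, and how resting cells were kept are not given in the sources used here. The p-values below therefore measure the spread between these arrays, which may be technical.

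Lipocalin 2 is stored in the secondary granules of neutrophils and is released when the cells are activated. It binds siderophores, the small iron carriers that bacteria secrete, and so withholds iron from them. fMLP is a formylated peptide of the kind bacteria shed. Neutrophils sense it through formyl peptide receptors, which signal through inhibitory G proteins to drive migration, granule release and the oxidative burst, and within minutes switch on immediate early genes.

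Values are the authors' RMA signals, taken as log2 from their range, and a difference below 0 means lower in the knockout. Each of 19938 genes was represented by its brightest single-gene probe set (mean of the 10 arrays), and 14070 genes passed the filter on low values. The arrays held the cells the labels name: 16 neutrophil marker genes had median signals of 13.48 and 13.48 on the wild type arrays and 13.39 and 12.81 on knockout replicates 1 and 2. The lowest of these markers stood at percentile 96.5 or above of all genes on 3 of the arrays and at 92.5 on knockout replicate 2. Across tested genes the wild type arrays correlated with each other at 0.993 and with knockout replicate 1 at 0.994 and 0.992. Knockout replicate 2 correlated with the other 3 arrays at only 0.875 to 0.880 and carried transcripts of brain cells. Each difference is therefore given for both knockout arrays, for replicate 1 alone and, where it helps, for replicate 2 alone. In the fits with 1 knockout array, that array was assumed to vary like the other groups.

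Lcn2 (Entrez gene 16819, chromosome 2) was the gene that set the genotypes apart. Its signal was 14.13 and 14.16 on the wild type arrays and 8.42 and 9.60 on knockout replicates 1 and 2. The groups did not overlap. Among all probe sets these values stood at percentiles 99.9 and 99.9, 58.9 and 80.8. The difference was -5.14 with both arrays (SE 0.41, adjusted p = 0.0189 in limma), -5.73 with replicate 1 alone (SE 0.31, adjusted p = 4.29e-05) and -4.54 with replicate 2 alone (adjusted p = 2.39e-06). In resting cells it was -5.39, and the change of the genotype difference with fMLP was 0.25 (SE 0.53, unadjusted p = 0.641, adjusted p = 0.874 in limma). Knockout replicate 2 had the highest Lcn2 signal of the 5 knockout arrays, whose resting members stood at 9.20, 8.36 and 8.09. The part of its brain transcripts in that level was not tested. Without wild type replicate 1 or 2 the adjusted p with both knockout arrays was 0.324 or 0.432, at -5.15 and -5.12, and with a replicate block it was 0.0964. The position of the Lcn2 probe set against the deleted sequence is not given in the sources used here.

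No gene besides Lcn2 passed the test, whether both knockout arrays or replicate 1 alone was used. Lcn2 was the 1 gene called of 14070, a share of 0.00711%, in each of these fits (Benjamini-Hochberg adjusted p below 0.05 in limma). With both arrays 1182 genes had an unadjusted p below 0.05, and with replicate 1 alone 255 had, where chance alone would give 703.5. With replicate 2 alone 6401 genes were called, 45.5% of those tested, of which 2004 (14.2%) were higher and 4397 (31.3%) lower. Exact permutation of 2 arrays against 2 can give no p below 0.33.

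Knockout replicate 1 lay about as close to the wild type arrays as these lay to each other. The SD of its difference from the wild type mean was 0.14 over tested genes, against 0.16 for the difference between the wild type arrays and 0.66 for knockout replicate 2. Only 4 tested genes were more than 1 from the wild type mean on replicate 1, 2 lower and 2 higher. Between the wild type arrays 19 differed by more than 1. A difference from a mean of 2 arrays spreads less than one between single arrays, so these SDs and counts are not like for like. On replicate 2 there were 688 above 1 and 750 below -1. Over genes, the replicate 1 difference correlated with the resting knockout difference at 0.36 (14070 genes, no shared arrays), and at 0.26 without Lcn2. The replicate 2 difference did so at 0.29 with and without Lcn2. Genes on an array are not independent, so these are descriptions.

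**Figure D1:**
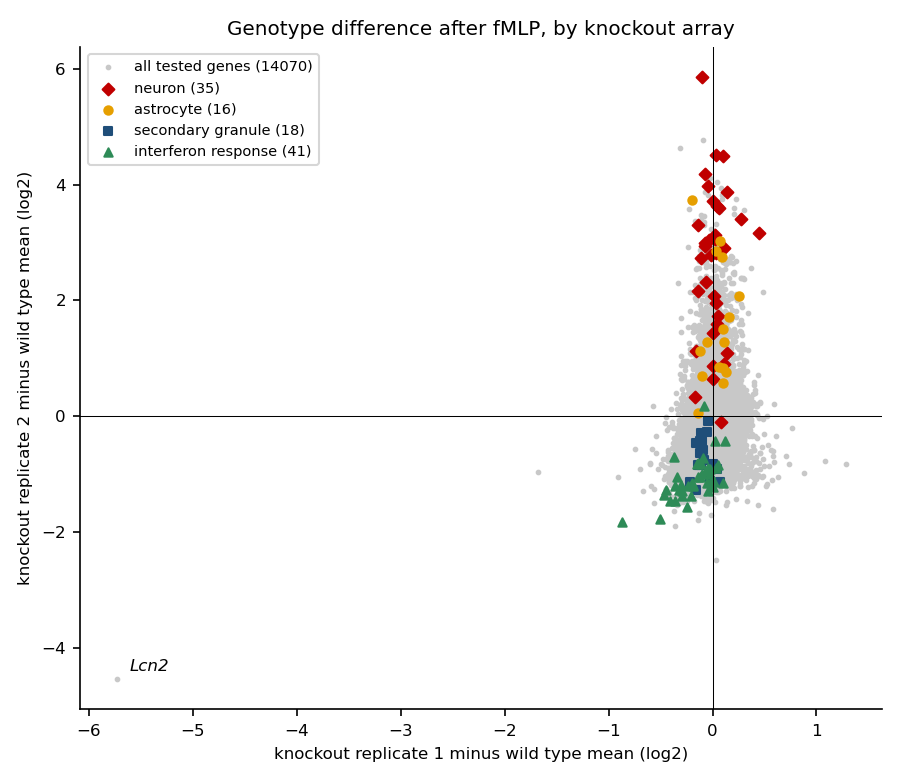
Each point is 1 of 14070 tested genes, with the difference of knockout replicate 1 from the wild type mean (log2) across and that of knockout replicate 2 (log2) upward. Lcn2 lies alone at -5.73 and -4.54, most neuron genes (red) and astrocyte genes (orange) are high on the replicate 2 axis, with medians of 2.91 and 1.28 there and of 0.01 and 0.08 on the replicate 1 axis, and interferon response genes (green) have a median of -1.15 on replicate 2.

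The 4 genes beyond 1 on replicate 1 were Lcn2, Tnfaip6 and 2 variable-segment genes of the antibody kappa light chain, which were picked out after their values were seen. Tnfaip6, which encodes a hyaluronan-binding protein stored in tertiary granules and induced by inflammation, stood at 8.31 and 9.25 in wild type and at 7.10 and 7.82 in knockout cells. All knockout values lay below all wild type values, but the wild type arrays themselves differed by 0.94. The difference was -1.32 (SE 0.33, adjusted p = 0.416 in limma) and -1.68 with replicate 1 alone (SE 0.30, adjusted p = 0.973). It stood at 7.18 to 7.68 on the 6 resting arrays, where the genotypes differed by -0.14. The first kappa gene stood at 7.91 and 7.85 in wild type and at 9.16 and 7.05 in knockout cells, so the knockout arrays lay on opposite sides of wild type. The second showed the same split, with 10.15 and 10.22 in wild type and 11.27 and 9.41 in knockout cells. Neither passed (adjusted p = 0.935 and 1 for replicate 1 alone in limma). In a fit of replicate 1 with the 4 other arrays of its array set they had adjusted p = 0.00325 and 0.00957. The first also passed in the replicate 1 fit without unstimulated knockout replicate 1 (adjusted p = 0.00935).

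Both knockout arrays lay below both wild type arrays for 3656 tested genes, a background of 26.0%, and above them for 2438, a background of 17.3%. Among these, the genes with the widest gap between the nearest knockout and wild type arrays are described next. None but Lcn2 passed with both arrays (adjusted p = 0.416 for each of the others in limma).

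The histone H3 gene H3c15 stood at 8.53 and 8.56 in wild type and 7.88 and 7.26 in knockout cells, a difference of -0.98 (SE 0.22) and of -0.67 with replicate 1 alone. In resting cells it was the same in both genotypes (-0.01). Itga6, the integrin alpha 6 chain that binds laminin, stood at 8.98 and 9.11 against 8.35 and 8.13. Its difference of -0.81 (SE 0.14, unadjusted p = 0.000393 in limma) was -0.70 with replicate 1 alone and -0.22 in resting cells. Bmpr1a, a receptor for bone morphogenetic proteins, stood at 9.55 and 9.71 against 9.03 and 8.80, with -0.60 on replicate 1. For these 3 genes the knockout arrays were lower by more than the wild type arrays differed, which their choice by the widest gap favours.

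Among the other lower genes, Rif1, which guards broken DNA ends and times replication, stood at 8.74 and 8.78 in wild type and 8.28 and 7.68 in knockout cells. Parpbp, which restrains homologous recombination, stood at 8.73 and 8.70 against 8.28 and 7.72, and Ccne2, the cyclin E2 gene, at 9.23 and 9.18 against 8.76 and 8.46. Their differences on replicate 1 alone were -0.47, -0.43 and -0.45. Hmgn5, a nucleosome-binding protein gene, was -0.59 there. Fosl1, an AP-1 transcription factor gene of the immediate early class, stood at 10.25 and 11.25 in wild type and at 9.84 and 9.70 in knockout cells. The wild type arrays were thus 1 apart on this scale, and the difference was -0.98 with both arrays and -0.91 with replicate 1.

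Of the 12 genes with the widest gap upward, Maf, a transcription factor gene of macrophages and lymphocytes, stood at 8.45 and 8.52 in wild type and at 8.90 and 8.93 in knockout cells. Its gap was the widest of the 12, at 0.38, and both knockout arrays were close to each other (0.41 and 0.45 above the wild type mean). Slc22a17, which encodes a cell-surface receptor for lipocalin 2, stood at 8.54 and 8.55 against 8.83 and 10.43. Its difference was 1.08 with both arrays (SE 0.42, adjusted p = 0.416 in limma) but 0.28 with replicate 1 alone, and 0.13 in resting cells. Ptprd, a receptor phosphatase gene of neurons, split in the same way, at 6.75 and 6.72 against 7.11 and 9.29. Both are high in brain, and the part of the neuron transcripts of replicate 2 in them was not tested. Pdyn, the precursor of the opioid dynorphin, stood at 7.57 and 7.80 against 8.08 and 8.22, Dkk1, a Wnt antagonist gene, at 7.84 and 7.90 against 8.23 and 8.19, and Tmem108 at 8.02 and 8.32 against 8.60 and 8.89. Differences on replicate 1 alone over these 12 genes ran from 0.28 for Slc22a17 to 0.44 for Tmem108.

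**Figure D2:**
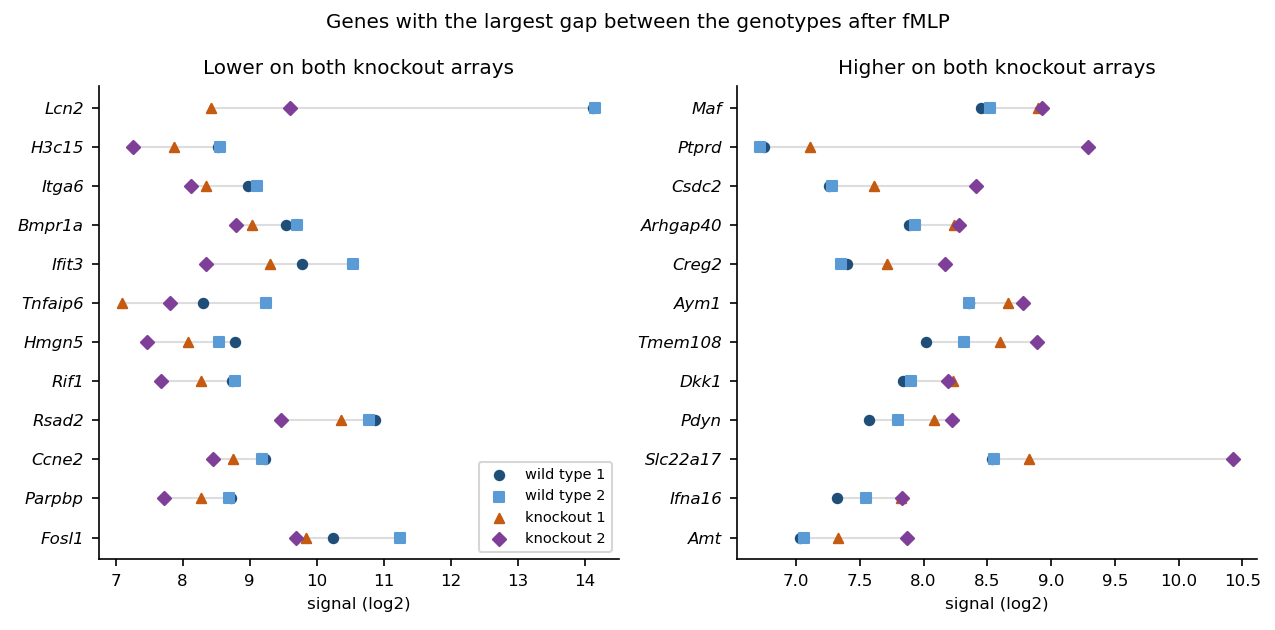
Signals (log2) of the 12 genes per direction with the widest gap between the nearest knockout and wild type arrays after fMLP, with 1 marker for each of the 4 arrays. Lcn2 spans 8.42 to 14.16; the other lower genes differ by far less, and Ptprd and Slc22a17 are set apart by knockout replicate 2, at 9.29 and 10.43.

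Knockout replicate 2 carried RNA of neurons and astrocytes. Over all 19938 genes with a probe set, 1038 were more than 1 above the mean of the other 3 fMLP arrays, 327 more than 2, 102 more than 3 and 27 more than 4. Snap25, a protein of synaptic vesicle fusion, led them at 7.36, 7.77 and 7.46 on wild type replicates 1 and 2 and knockout replicate 1 and at 13.43 on knockout replicate 2. The next were Dlg2, a postsynaptic scaffold gene (6.68 on knockout replicate 1, 12.31 on replicate 2), Cacng3, an auxiliary subunit of AMPA receptors (6.03, 11.35), Vsnl1, a neuronal calcium sensor gene (7.45, 12.64), and Lgi1, a secreted synaptic protein gene (5.06, 10.21). Of 48 measured neuron markers, 42 were more than 1 above wild type on replicate 2. Of the 35 tested, 34 were called higher on replicate 2 alone, against 14.2% of all genes, with a median difference of 2.91 there and 0.01 on replicate 1. Some markers were chosen with this array in view, and its own level counted towards entry to the test, so these counts describe it. The same filter held for the other brain lists.

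The other brain lists were uneven. Of 16 tested astrocyte markers 15 were called higher on replicate 2 alone, against 14.2% of all genes, with a median of 1.28 (0.08 on replicate 1). Aldoc, a glycolytic enzyme gene of astrocytes, stood at 11.86 there and at 7.92 to 8.14 on the other 3 arrays, and Slc1a2, the main glutamate uptake carrier, at 10.31 against 7.52 to 7.65. Oligodendrocyte markers had a median of 0.10 over 14 genes, with 5 called higher and 2 lower, against 14.2% and 31.3% of all genes. The largest difference among the 5 was that of Olig1, a transcription factor of the lineage, which stood at 8.42 there and at 7.39 to 7.51 on the other 3 arrays. Fa2h, an enzyme of myelin lipid synthesis, stood at 8.29 against 7.62 to 7.83. The myelin genes Mbp (9.36, and 9.87 to 9.98 on the other arrays), Mobp (7.96, and 7.94 to 8.06) and Mag (7.90, and 7.95 to 8.09) were at or below the highest of the other arrays. Microglia markers had a median of -0.30 over 10 genes. The microglia genes Tmem119 and Sall1 stood at 7.86 and 8.54 on replicate 2 and 7.85 and 8.21 on replicate 1. In that list only Sparc, an extracellular matrix gene that astrocytes also express, was called higher (11.87, and 7.86 to 8.0 elsewhere).

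Region markers differed between lists. Of 9 tested markers of cortex and hippocampus, 7 were called higher on replicate 2 alone, against 14.2% of all genes, with a median of 0.87 (-0.02 on replicate 1). Tbr1, a transcription factor of deep-layer cortical neurons, stood at 10.28 on it and at 6.74 to 6.92 on the other 3, Hpca, a hippocampal calcium sensor gene, at 10.91 against 8.25 to 8.43, and Fezf2, which specifies corticospinal neurons, at 9.46 against 7.54 to 7.68. Striatum markers had a median of 0.36 on replicate 2 and 0.17 on replicate 1, where 6 of 9 lay above both wild type arrays. The dopamine receptor gene Drd2 of this list stood at 8.39 on replicate 2 (7.81 to 8.03 elsewhere) and Drd1 at 8.81 (8.43 to 8.63). The list of pituitary and endocrine genes had 2 of 5 tested members called higher, with a median of 0.47. These were the neuropeptide genes Sst and Npy, which neurons also make, at 12.22 and 10.95 on replicate 2 and 8.69 and 8.72 on replicate 1. Replicate 2 medians were 0.16 over 3 tested cerebellum markers, 0.11 over 8 of hypothalamus and brainstem and 0.09 over 6 of sensory neurons. They were 0.19 over 5 choroid plexus and 0.10 over 6 liver markers, against -0.10 over all tested genes. On replicate 1 the medians were 0.11 for the pituitary and endocrine list, 0.14 for choroid plexus and 0.07 for liver. There they were 0.01 for cerebellum, 0.07 for hypothalamus and brainstem and 0.01 for sensory neurons. Replicate 2 counted among the 2 or more arrays over the filter value, so a marker could enter the test partly through its level there. Over all measured members the replicate 2 medians were 2.8 for neuron, 1.13 for astrocyte and 0.9 for cortex and hippocampus markers. A marker high on replicate 2 and low on the other 9 arrays could not enter the test. Only 3 of 12 measured cerebellum and 6 of 10 measured sensory neuron markers did. Of the untested ones, Calb1, a calcium-binding protein gene of the cerebellum list, stood at 8.44 on replicate 2 and 6.42 to 6.66 on the other 3 arrays. Tubb3, the neuronal tubulin gene of the sensory neuron list, stood at 10.13 against 7.31 to 7.41.

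**Figure D3:**
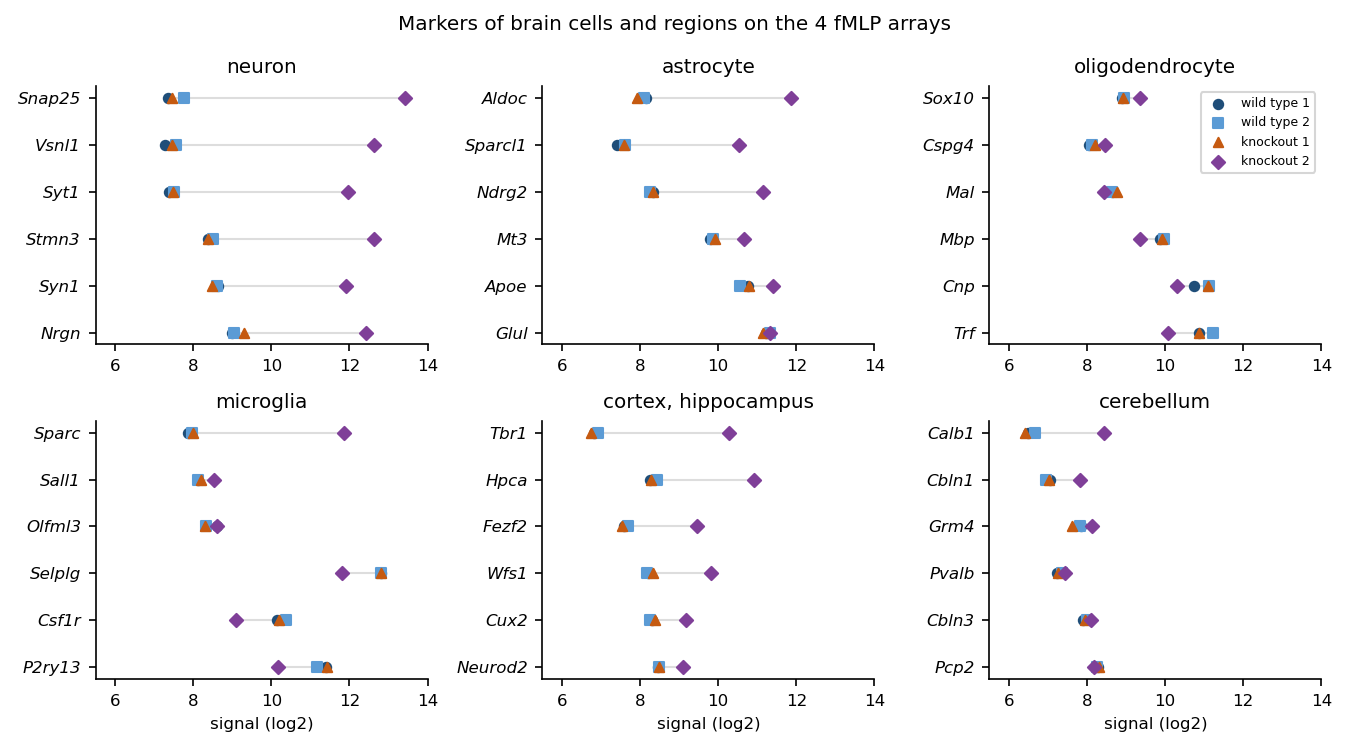
Signals (log2) on the 4 fMLP arrays of 6 markers each, those highest on knockout replicate 2, of brain cell types and 2 brain regions; a bar joins the lowest and highest array. Knockout replicate 2 (purple diamonds) stands apart for neuron and most astrocyte and cortex markers, such as Snap25 at 13.43, but not for the myelin gene Mbp at 9.36.

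Neutrophil markers and most of the brightest genes were lower on the same array. Of the 200 tested genes brightest on the wild type fMLP arrays, 186 were lower on knockout replicate 2 than the wild type mean. The share over all tested genes was 58.7%, and choice by the wild type signal favours lower values on other arrays. The median of the 200 was -0.05 on replicate 1 and -0.60 on knockout replicate 2. Its 16 neutrophil markers had a median of -0.70 and 9 were called lower, against 31.3% of all genes. The lowest deviations over all genes, after Lcn2, included those of the small nucleolar RNA gene Snord73b (7.21, and 9.21 to 10.18 on the other 3 arrays), Trim12c (7.30, and 8.82 to 9.19) and the nuclear RNA Malat1 (9.92, and 11.58 to 11.85). Xist, which coats the inactive X chromosome, stood at 9.83 against 10.97 to 11.12 (adjusted p = 2.63e-05 in limma), and the Y-linked gene Eif2s3y at 6.48 against 5.36 to 5.44 (adjusted p = 0.000912). In bulk RNA, fewer cells of a type and less RNA per cell cannot be told apart. The part of the brain transcripts in these lower signals was not tested.

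Gene lists were read against this background. Over 43 lists, 0 members were called in limma with both knockout arrays and 0 with replicate 1 alone, so each list is described by its median and by how many members lay outside the wild type range on replicate 1. Over all tested genes, replicate 1 lay below both wild type arrays for 36.1% and above both for 32.6%, with a median difference of -0.005. The counts of the lists below are to be read against these shares. On replicate 2 the median was -0.10. A further quantile normalization brought the replicate 2 median nearer to 0 by over 1.5 times in 12 of the 43 lists and changed its sign in 3. The medians then were -0.82 for interferon response, -0.54 for proliferation, -0.54 for B cell and -0.41 for immediate early genes.

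**Figure D4:**
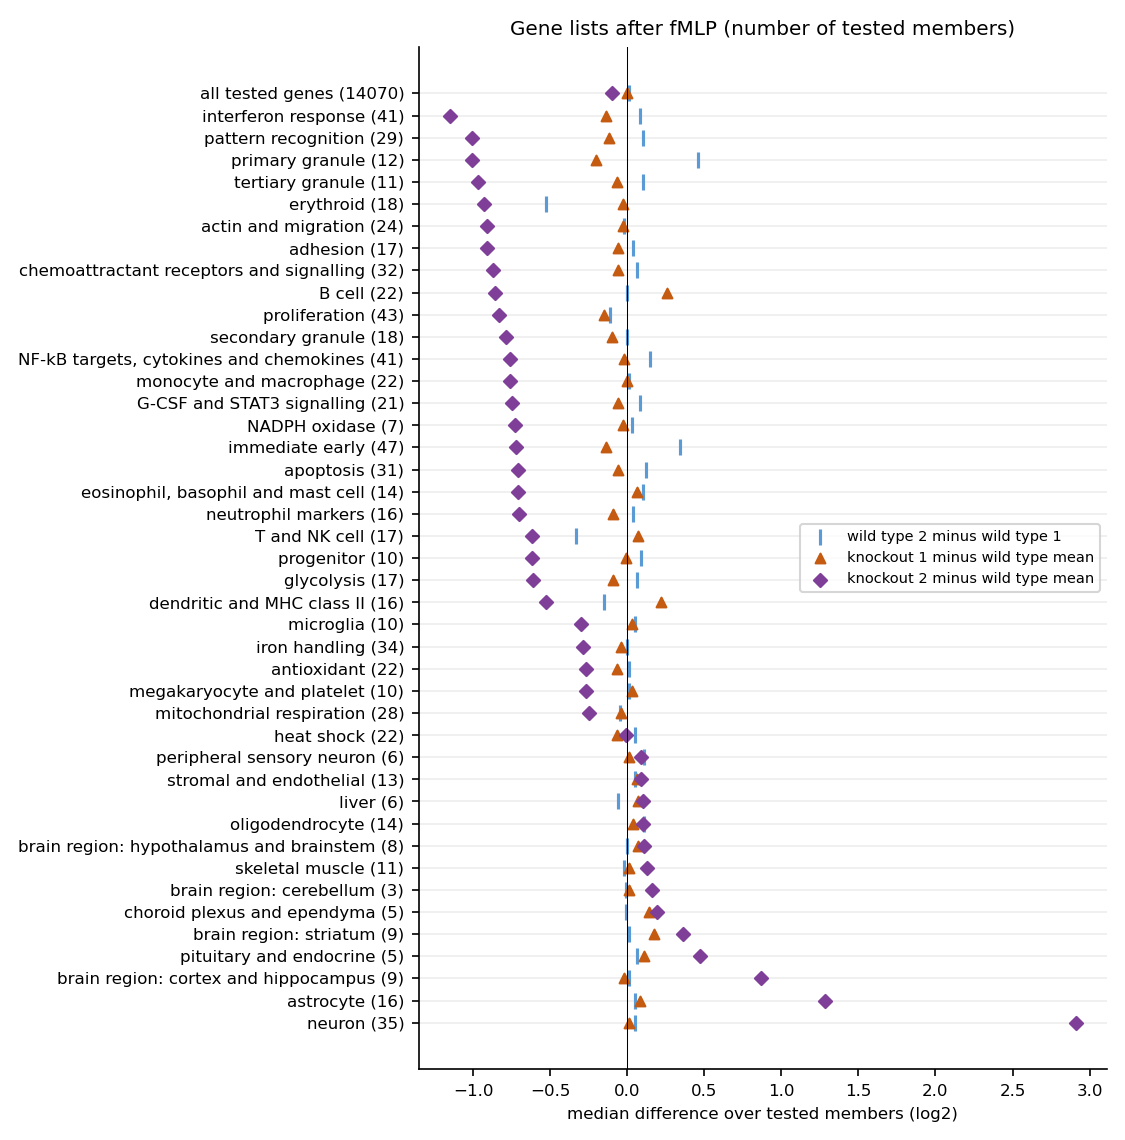
Median difference (log2) over the tested members of each gene list after fMLP: knockout replicate 1 (triangles) and replicate 2 (diamonds) against the wild type mean, and wild type replicate 2 minus replicate 1 (blue bars). Triangles stay between -0.20 and 0.26, while diamonds run from -1.15 for interferon response to 2.91 for neuron genes.

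Granule genes of neutrophils were slightly lower on replicate 1. Of 18 secondary granule genes other than Lcn2, the compartment that holds lipocalin 2, 15 lay below both wild type arrays. The share over all tested genes was 36.1%, and the median of the list was -0.10 (range -0.22 to 0.07). None passed with both arrays or replicate 1. Olfm4, olfactomedin 4 of a neutrophil subset, stood at 12.15 and 12.32 in wild type and 12.07 and 10.96 in knockout cells. Slpi, an inhibitor of neutrophil proteases, stood at 11.17 and 11.31 against 11.11 and 10.40, and Cyba, the membrane subunit p22phox of the NADPH oxidase, at 13.26 and 13.32 against 13.17 and 12.45. On replicate 1 these genes were 0.06 to 0.09 below the nearer wild type array, while on replicate 2 the list median was -0.79. The resting median was -0.16, and it was -0.26 in the first array set and 0.02 in the second, which holds the fMLP arrays.

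Primary granule genes, made in promyelocytes, had a median of -0.20 on replicate 1 and -1.01 on replicate 2. On replicate 1, 7 of 12 lay below both wild type arrays, against 36.1% of all genes. The wild type arrays differed by a median of 0.46 in these genes. Prtn3, proteinase 3, stood at 9.69 and 10.21 against 9.63 and 8.83, and Ms4a3, a marker of granulocyte progenitors, at 9.22 and 9.66 against 9.09 and 8.30. Knockout replicate 1 was therefore just below wild type replicate 1 and far from wild type replicate 2. Tertiary granule genes had a median of -0.07 over 11 genes, with 6 below both wild type arrays, against 36.1% of all genes. Plaur, the urokinase receptor, stood at 12.12 and 12.48 against 12.03 and 11.28.

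Receptors and signalling proteins downstream of fMLP differed little. Of 32 chemoattractant genes, 20 lay below both wild type arrays on replicate 1, against 36.1% of all genes. The list median was -0.06 (range -0.27 to 0.15). Gnai3, an inhibitory G protein subunit, stood at 11.40 and 11.48 in wild type and at 11.18 and 10.92 in knockout cells. Ccr1, a chemokine receptor, stood at 11.24 and 11.42 against 11.06 and 10.05, and Plcb2, the phospholipase that these receptors activate, at 11.87 and 11.85 against 11.69 and 10.90. Genes of actin and migration had a median of -0.03 (24 genes), adhesion genes -0.06 (17) and NADPH oxidase genes -0.03 (7). On replicate 2 the medians of these 4 lists were -0.87, -0.91, -0.91 and -0.73.

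Itgam, the CD11b chain of the main neutrophil integrin, stood at 12.80 and 12.80 in wild type and at 12.60 and 11.79 in knockout cells, and was -0.20 on replicate 1. Tln1, the integrin activator talin, stood at 11.84 and 11.81 against 11.72 and 10.70. Evl, which extends actin filaments, went the other way, at 10.45 and 10.18 against 10.59 and 11.77. It was called higher on replicate 2 alone (adjusted p = 3.93e-05 in limma) and was 0.27 on replicate 1 (unadjusted p = 0.0922). Pattern recognition genes had a median of -0.12 over 29 genes, with 13 below and 7 above both wild type arrays. Tlr2, the receptor for bacterial lipopeptides, stood at 11.17 and 11.48 against 10.95 and 10.23.

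Immediate early genes differed between the wild type arrays. The median difference between wild type replicates 2 and 1 was 0.34 over 47 genes. On knockout replicate 1 it was -0.14 from the wild type mean, with 17 genes below and 9 above both wild type arrays. Egr1, an early zinc finger factor gene, stood at 10.43 and 11.98 in wild type and at 10.74 and 11.09 in knockout cells. Fos stood at 11.75 and 13.04 against 12.16 and 11.93, and Ptgs2, the inducible prostaglandin synthase, at 12.20 and 13.26 against 12.37 and 12.21. For these 3 genes, named after their values were seen, knockout replicate 1 lay between the wild type arrays. The same held for 17 of the 19 genes that differed by more than 1 between the wild type arrays. Their choice by a wide wild type difference favours this, so the count is a description. Of the 19, 10 were higher on wild type replicate 2. Fosl1, described above, was not 1 of the 17, with knockout replicate 1 at 9.84, below both wild type arrays.

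Targets of NF-kB, with cytokines and chemokines, had a median of -0.02 on replicate 1 over 41 genes, with 13 below and 12 above both wild type arrays. Tnf stood at 10.59 and 11 in wild type and 10.47 and 9.73 in knockout cells, and Nfkbiz, an inducible NF-kB cofactor, at 10.55 and 10.86 against 10.37 and 9.80. Cxcl1, a neutrophil-attracting chemokine, was a little higher on both knockout arrays, at 8.29 and 8.30 against 8.55 and 8.49 (0.26 on replicate 1, unadjusted p = 0.0660 in limma). Genes of G-CSF and STAT3 signalling, which control neutrophil production, had a median of -0.06 over 21 genes. On replicate 2 the medians were -0.76 and -0.75.

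Genes induced by interferon, many of them antiviral, lay a little below wild type on replicate 1. Of 41 tested, 35 were under the wild type mean and 29 lay below both wild type arrays (2 above), against 36.1% of all genes, with a median of -0.14. None passed with both arrays or replicate 1. On replicate 2 alone 39 were called lower, against 31.3% of all genes, with a median of -1.15. Ifit3, which binds viral RNA complexes, stood at 9.79 and 10.54 in wild type and 9.30 and 8.35 in knockout cells. Its difference was -1.34 with both arrays (SE 0.34, adjusted p = 0.416 in limma), -0.87 with replicate 1 alone and -0.43 in resting cells. Rsad2, the antiviral enzyme viperin, stood at 10.87 and 10.79 against 10.36 and 9.47, with -0.47 on replicate 1 and -0.48 in resting cells. Ifit1 stood at 9.24 and 9.91 against 9.07 and 7.81. The sensor gene Ifih1 stood at 9.31 and 9.34 against 8.96 and 8.11, and Eif2ak2, the kinase PKR, at 8.81 and 8.83 against 8.52 and 7.64. In these 5 genes each knockout array was below each wild type array. The resting medians of the list were -0.04 in the first array set and -0.31 in the second.

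Many promoters of this list carry the element through which interferon-activated factors bind. The only motif searched was GAAA, then any 2 bases, then GAAA, on both strands (in reverse TTTC, any 2 bases, TTTC), in the 250 bases before each RefSeq start of GRCm38.p6. It was found in 978 of 32851 promoters (3.0%), in 356 of the 11148 tested genes with a promoter (3.2%) and in 14 of 33 interferon response genes with one (42.4%). The promoters of 3 genes described above are shown because they carry it, on the gene's strand, with motif matches in capitals: Ifit3 at chr19:34583279-34583528 (plus strand, 2 matches), Rsad2 at chr12:26456453-26456702 (minus strand, 1 match) and Ifit1 at chr19:34640639-34640888 (plus strand, 2 matches).
Ifit3: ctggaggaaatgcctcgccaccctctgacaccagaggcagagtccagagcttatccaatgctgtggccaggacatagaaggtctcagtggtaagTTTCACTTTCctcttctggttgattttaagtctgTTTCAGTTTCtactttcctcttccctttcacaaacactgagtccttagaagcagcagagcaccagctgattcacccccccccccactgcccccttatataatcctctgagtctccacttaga
Rsad2: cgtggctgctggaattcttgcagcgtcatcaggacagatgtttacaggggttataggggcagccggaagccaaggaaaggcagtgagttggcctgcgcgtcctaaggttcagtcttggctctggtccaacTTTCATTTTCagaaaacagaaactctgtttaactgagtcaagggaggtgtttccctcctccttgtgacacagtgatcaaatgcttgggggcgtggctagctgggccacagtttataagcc
Ifit1: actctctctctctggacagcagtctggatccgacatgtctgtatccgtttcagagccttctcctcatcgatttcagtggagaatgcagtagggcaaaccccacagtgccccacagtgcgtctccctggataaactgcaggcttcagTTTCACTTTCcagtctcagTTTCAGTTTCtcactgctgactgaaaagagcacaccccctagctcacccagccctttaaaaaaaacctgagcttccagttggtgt

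The 14 interferon genes with the motif had a median of -0.21 on replicate 1 and 11 lay below both wild type arrays. The 19 without it had a median of -0.11, with 12 below. On replicate 2 the medians were -1.17 and -1.05, and in resting cells -0.17 and -0.18. A match is a description of the sequence, not a measured binding site.

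Proliferation genes lay on 1 side of wild type on replicate 1. Of 43 tested, 41 were lower than the wild type mean, at a median of -0.15. Of these 43, 29 lay below both wild type arrays, against 36.1% of all genes, and 0 above both, against 32.6%. The wild type arrays differed by a median of -0.11, and the resting median was -0.03. Hmmr, a spindle protein gene, stood at 9.54 and 9.49 in wild type and 9.11 and 8.52 in knockout cells. Ttk, the spindle checkpoint kinase, stood at 8.71 and 8.65 against 8.28 and 7.91, and Cdc25c, the phosphatase that starts mitosis, at 8.33 and 8.19 against 7.83 and 7.58. Their differences on replicate 1 alone were -0.40, -0.40 and -0.43 (unadjusted p = 0.0158, 0.0114 and 0.0150 in limma, adjusted p = 1 for each). The list median on replicate 2 was -0.83, with 37 called lower, against 31.3% of all genes.

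B cell genes were higher on replicate 1 and lower on replicate 2. Of 22 tested, 21 were higher than the wild type mean on replicate 1 and 15 lay above both wild type arrays, against 32.6% of all genes, with a median of 0.26. On replicate 2 the median was -0.86 and 15 were called lower, against 31.3% of all genes. Ly6d, a marker of the B lineage, stood at 11.25 and 11.50 in wild type and 11.97 and 10.59 in knockout cells. Igll1, part of the surrogate light chain of pre-B cells, stood at 10.32 and 10.23 against 10.63 and 9.62, and Vpreb3 at 10.58 and 11.06 against 11.27 and 9.78. For the constant region gene Igha, named after its values were seen, the signals were 11.12 and 11.50 against 12.19 and 10.33. The knockout arrays thus lay on opposite sides of wild type. The resting median difference of the list was -0.06 in the first array set and 0.37 in the second. In the second set 1 resting knockout array stands against 1 wild type array. The part of the genotype in these differences was not tested.

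Genes of dendritic cells and MHC class II antigen presentation had a median of 0.22 on replicate 1. Of 16 tested, 10 lay above both wild type arrays, against 32.6% of all genes. On replicate 2 the median was -0.53, with 11 lower than the wild type mean and 5 higher, up to 2.71. H2-DMa, which loads peptides on MHC class II, stood at 10.65 and 10.15 in wild type and 10.82 and 9.32 in knockout cells. Ciita, the master regulator of MHC class II genes, stood at 9.32 and 8.77 against 9.42 and 8.34. Wild type replicate 2 differed from replicate 1 by -0.51 and -0.55 in these genes, while knockout replicate 1 was 0.42 and 0.37 above the wild type mean. The median for T and NK cell genes was 0.07 on replicate 1, and the wild type arrays differed by -0.33 in them. Erythroid genes had a median of -0.03, with 0 of 18 outside the wild type range on replicate 1, and a wild type difference of -0.53.

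**Figure D5:**
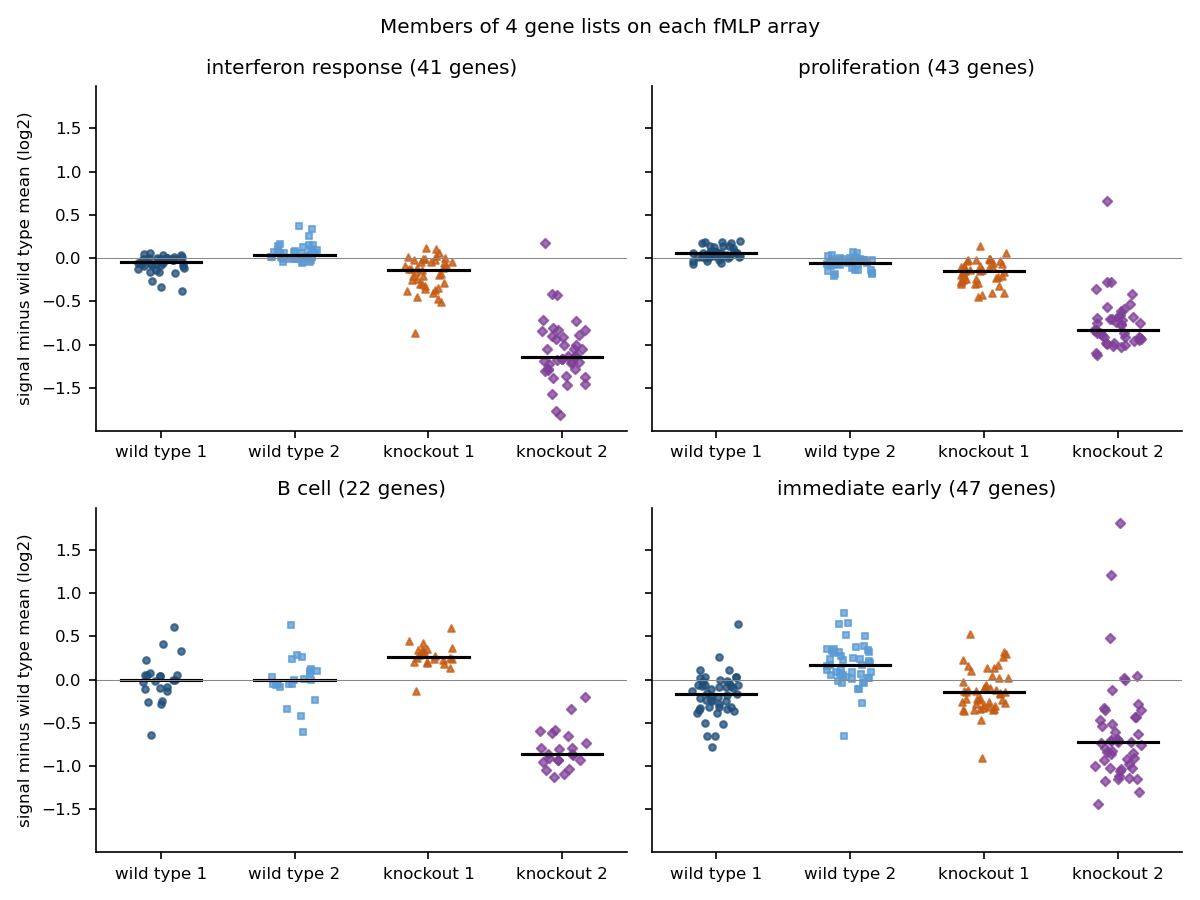
Signal minus the wild type mean (log2) for the tested members of 4 lists on each fMLP array; each point is a gene and the black line is the median. On knockout replicate 1 the medians are -0.14 for interferon response, -0.15 for proliferation, 0.26 for B cell and -0.14 for immediate early genes, and on replicate 2 they are -1.15, -0.83, -0.86 and -0.72.

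Monocyte and macrophage genes had a median of 0.00 on replicate 1 over 22 genes, with 7 below and 6 above both wild type arrays. Fn1, fibronectin, stood at 8.63 and 9.41 in wild type and 9.79 and 8.81 in knockout cells (0.76 on replicate 1, unadjusted p = 0.0182 in limma). Vcam1, an adhesion receptor of marrow macrophages and stroma, stood at 9.48 and 9.42 against 9.13 and 8.63. Eosinophil, basophil and mast cell genes had a median of 0.06 over 14 genes. Alox15, the lipoxygenase of eosinophils, stood at 10.07 and 9.59 against 10.57 and 9.01, so the knockout arrays lay outside wild type in opposite directions. Megakaryocyte and progenitor genes had medians of 0.03 and -0.01. F2rl2, a thrombin receptor of platelets, stood at 8.21 and 8.25 against 7.85 and 7.26 and was -0.38 on replicate 1 (unadjusted p = 0.00787 in limma).

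Iron handling genes, the pathway nearest to the known role of lipocalin 2, differed little. The median over 34 genes was -0.04 on replicate 1 (range -0.23 to 0.28), with 15 below and 8 above both wild type arrays, and -0.29 on replicate 2. Slc40a1, the iron exporter ferroportin, stood at 11.68 and 11.73 in wild type and 11.52 and 10.43 in knockout cells. Trf, transferrin, stood at 10.87 and 11.22 against 10.86 and 10.07, and Ftl1, the ferritin light chain, at 12.94 and 13.05 against 12.88 and 12.37. Ireb2, an iron-sensing regulator of RNA, was the lowest on replicate 1, at 9.95 and 9.91 against 9.70 and 9.81. The receptor gene Slc22a17, described above, was the highest.

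Antioxidant genes had a median of -0.07 over 22 genes on replicate 1. Nfe2l2, the NRF2 factor that induces many of them, stood at 11.65 and 12.06 in wild type and 11.30 and 10.61 in knockout cells. Its difference was -0.91 with both arrays and -0.56 with replicate 1 alone (unadjusted p = 0.0134 in limma), the lowest of this list. Slc7a11, the cystine importer, stood at 9.65 and 10.18 against 9.49 and 9.15, and the heme oxygenase gene Hmox1 at 10.92 and 10.62 against 10.73 and 9.60. Apoptosis genes had a median of -0.06 over 31 genes, with 16 below and 5 above both wild type arrays. Bcl2l11, the pro-death protein BIM, stood at 9.59 and 9.88 against 9.52 and 8.82, and Casp1, the inflammasome protease, at 8.75 and 8.73 against 8.51 and 7.43.

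On replicate 1 the median was -0.09 over 17 genes of glycolysis, -0.07 over 22 heat shock genes and -0.04 over 28 genes of mitochondrial respiration. Hk3, the hexokinase of myeloid cells, stood at 11.34 and 11.34 in wild type and 11.12 and 10.13 in knockout cells. Dnajb1, a heat shock cochaperone, stood at 10.31 and 10.31 against 10.02 and 9.98, so its knockout arrays were close to each other. Asns, asparagine synthetase, was similar at 11.42 and 11.40 against 11.18 and 11.12. These 2 were -0.29 and -0.24 on replicate 1 (unadjusted p = 0.0592 and 0.0855 in limma). Ndufa4, a subunit associated with cytochrome oxidase, stood at 11.12 on replicate 2 against 8.76 to 9.01 on the other 3 arrays. On replicate 2 the median of the heat shock list was -0.01 and that of the respiration list -0.25, and both turned positive under a further quantile normalization.

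The genotype difference was then set against that in resting cells. No gene passed the test of the interaction of genotype and fMLP in limma, a called share of 0% of 14070 genes. At an unadjusted p below 0.05 there were 258 with both knockout arrays and 125 with replicate 1 alone, where chance alone would give 703.5. Among the 10 with the smallest p, Ttk was -0.58 after fMLP and 0.17 in resting cells, an interaction of -0.76 (SE 0.19, unadjusted p = 0.00382, adjusted p = 0.776 in limma). Its resting signals in the second array set were 9.0 in wild type and 9.04 in knockout cells. Of the same sign were Cdc25c (interaction -0.67), Fam83d (-0.60), a spindle protein gene, and Gins3 (-0.57), a replication factor gene. So were Tedc1 (-0.48), a centriole gene, and Parpbp (-0.78). All these values, with those of Ttk, are from both knockout arrays and so include replicate 2. For Ttk, Cdc25c and Parpbp the difference after fMLP was smaller on replicate 1 alone, as given above. For Fam83d, Gins3 and Tedc1 replicate 1 alone is not given here. The proliferation list, which holds Ttk and Cdc25c, had a median of -0.15 on replicate 1 and -0.83 on replicate 2. The interaction genes were chosen by their p, so the shared sign is a description. Piga, the first enzyme of GPI anchor synthesis, stood at 8.43 and 8.24 in wild type and 7.84 and 7.5 in knockout cells after fMLP, with a resting difference of 0.01.

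The neighbours of Lcn2 were examined last. Among the 100 genes on each side of Lcn2 on chromosome 2, 94 were tested and 0 were called in limma with both knockout arrays or with replicate 1 alone. On replicate 1 their median was -0.03, and their differences ran from -0.19 for Eng to 0.35 for Cstad (unadjusted p = 0.0342). None was beyond 0.5. Replicate 1 lay below both wild type arrays for 37 of the 94, against 36.1% of all tested genes, and above both for 22, against 32.6%.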

How the data were processed

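RNA of 10 arrays was measured by the authors on Affymetrix arrays. Per the submitters' processing notes, the authors ran RMA with the Expression Console software, and the deposited signals are read here as log2 because of their range. Versions, build and normalization run are not given in the sources used here. Of 35556 probe sets, 21789 name 1 gene, 1621 several and 12146 none in GEO's platform annotation. Genes entered the tests with 2 or more arrays over 8.18, the median of the whole table. limma (version 3.58.1, R version 4.3.3) fitted all 10 arrays with a coefficient per group and a block for 2 array sets, which differ in interquartile range (under or over 2): resting replicates 1 and 2 form the first set, and resting replicate 3 with the fMLP arrays the second. The residual SD had a median of 0.16 (5 degrees of freedom), and 0.11 without either knockout array. Tests were two-sided and adjusted by Benjamini-Hochberg. The code was tested on simulated data. Same-numbered fMLP arrays did not deviate together (r = 0.06 over genes, 2 pairs). Same-numbered resting arrays correlated at 0.929 to 0.988, where the numbers also follow the array sets, and at 0.464 within the first set.

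Genes named are Lcn2; called genes; per direction the 12 with the widest gap between groups; the 12 per direction farthest on knockout replicate 2; the 10 with the smallest interaction p; and up to 4 members per list with the smallest p with both knockout arrays, and up to 4 with replicate 1 alone, to which brain lists add the 6 highest on replicate 2. Predicted genes were counted, not named. Any other gene is said to have been named after its values were seen. The comparison, the members and the lists were chosen with earlier results of these data known.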

Additional observations from a re-analysis of the deposited data

How the results depend on the processing

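The number of arrays limits the precision. With both knockout arrays 1 gene, Lcn2, was called; 0 were called with the replicate block, with only the 4 fMLP arrays or the 6 of their array set, without moderation, and with a size threshold of 1 (1293, 62, 62, 663 and 1 at an unadjusted p below 0.05). Lcn2 then stood at -5.14 with adjusted p = 0.0964 (replicate block), 0.683, 0.683, 0.510 and 0.0518. Leaving out each array in turn gave 0 to 6401 called genes and Lcn2 from -5.73 to -4.54, and the call was lost without any 1 of 7 of the 10 arrays. The cause was not tested. Without an array set block, after a further quantile normalization, after median centring, without the filter, with a stricter one, with the mean of all probe sets, with a variance trend and with array weights Lcn2 was again the 1 gene called. The interaction could not be fitted with the 4 fMLP arrays alone; it had 0 called genes under the other alternatives, and 0 to 4924 with 1 array left out; the 4924 came without fMLP knockout replicate 1. With knockout replicate 1 alone 1 gene was called, 3 with only the 5 remaining arrays of its set, and 1 to 2 with a further array left out. The second was Tnfaip6 (-2.15, adjusted p = 0.0123) without wild type replicate 1, and the first kappa gene (1.28, adjusted p = 0.00935) without unstimulated knockout replicate 1. The replicate block, added to this fit after seeing the data, left 1. Of the 23 other genes with the widest gap, whose direction their choice fixes, 20 passed without fMLP knockout replicate 1 and 0 in the other settings of the fit that starts from both knockout arrays.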
